A study of Mus musculus with 24 samples.

Results

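The pancreas of mice with 1 intact copy of Nr5a2 (genotype +/-, called HET) was compared 24 h into caerulein-induced pancreatitis with the pancreas of saline-treated mice of the same genotype. The comparison took 6 of the 24 libraries of the series, chosen by their labels. HET 24 h comprised 3 mice killed 24 h after the first of 7 hourly intraperitoneal injections of caerulein at 50 µg/kg. HET saline comprised 3 mice given saline, with no time of death stated in the labels. The same pair of conditions in mice with 2 intact copies (+/+, called WT), 3 libraries each, was used where the size of the HET change was set against another genotype. All animals had a C57BL background, and whole pancreas was taken, so each value is a mean over every cell type of the organ. The sources used here give neither how the Nr5a2 allele was inactivated nor the age of the mice. Of 36806 genes in the deposited table, 12841 were tested.

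Acinar cells make up most of the exocrine pancreas and devote most of their messenger RNA to digestive enzymes, which they store in zymogen granules and release when cholecystokinin binds its receptor. Caerulein is a cholecystokinin analog; repeated doses above the physiological range cause a mild, self-limiting pancreatitis with oedema, inflammatory cell entry and loss of granules. During that injury acinar cells lower their secretory programme and take on features of ducts, a reversible state called acinar-to-ductal metaplasia. Nr5a2 encodes an orphan nuclear receptor that binds enzyme gene promoters together with the PTF1 complex and is required for full acinar differentiation in mice.

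Polyadenylated RNA was sequenced, and levels are given as FPKM, a fragment count corrected for transcript length and library size. The header of the deposited table names no unit, and FPKM was inferred from the submitters' processing notes and the values. Added over genes, FPKM came to between 253085 and 282830 in the HET 24 h libraries and between 745601 and 1400108 in the HET saline libraries, and the number of reads behind them is unknown. Shares of summed FPKM were taken over genes with a value in every group. Digestive enzyme, granule and Reg genes made up 16.5% to 20.3% in HET 24 h and 50.5% to 53.8% in HET saline. Several enzyme genes listed at 0 in saline were left out of these shares. The 4 Y-linked transcripts listed summed to 14.9, 11 and 16 FPKM in HET 24 h. In HET saline they were listed at 0 in replicates 1 and 2 and summed to 8.77 FPKM in replicate 3, so Y-linked RNA was unequal between the groups. The labels do not give the sex of the mice, and a fit with a term for Y-linked transcripts is given below. The lowest correlation between libraries of a group was 0.9381 for HET 24 h, 0.912 for HET saline, 0.8845 for WT 24 h and 0.9288 for WT saline.

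Values were compared as log2(FPKM + 1) with limma, and a gene was called when its Benjamini-Hochberg adjusted p was under 0.05. Of the 12841 genes, 5613 (43.7%) were called, 3073 (23.9%) higher and 2540 (19.8%) lower in HET 24 h than in HET saline. The ranges of both groups did not overlap for 49.1% of the genes. At least 2-fold changes were found for 1084 genes that rose and 1166 that fell. The median log2 fold change of all genes was 0.06. The split depended on how libraries were scaled: scaled to the total of protein-coding genes other than enzyme, granule and Reg genes, 4999 genes rose and 1574 fell, with a median of 0.34. Scaled to the total of all gene types other than those genes, 7944 rose and 629 fell, with a median of 0.83. Under the last scaling the medians of 14 of 52 lists turned from negative to positive, among them those of MHC class II, complement, T and NK cells and islets. With the protein-coding total this held for NRF2 and glutathione genes, acute phase genes, the caerulein receptor list, the clock and mesothelium. Rises and falls below are at the authors' scaling.

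Nr5a2 itself had 4.09, 5.39 and 4.33 FPKM in HET 24 h, against 9.09, 8.01 and 8.79 FPKM in HET saline. Every 24 h library lay below every saline library, with a log2 fold change of -0.79 ± 0.19 (SE, n = 3 each) and an adjusted p of 0.00229 (limma). The call ended with scaling to the protein-coding total, at -0.43 and an adjusted p of 0.0800, and the sign turned with scaling to the total of all gene types, at 0.17.

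The transcription factors of the acinar state fell. Of 15 tested members, 10 were lower and none was higher, against 19.8% and 23.9% of all genes, and the median log2 fold change was -0.99. Bhlha15, also called Mist1, which drives the granule and secretory architecture of acinar cells, had 0.396, 0.846 and 0.781 FPKM in HET 24 h. It had 58.7, 43.7 and 59.0 FPKM in HET saline, so it was close to the lower limit of measurement in every 24 h library. Its log2 fold change was -5.03 ± 0.46 (adjusted p = 1.5e-07, limma). Rbpjl, the acinar-specific subunit of the PTF1 complex, had 3.40, 4.98 and 4.75 FPKM in HET 24 h, against 54.3, 50.8 and 65.8 FPKM in HET saline. Gata4 and Creb3l1 fell by 1.79 and 1.58 on the log2 scale. Fewer acinar cells and less RNA per acinar cell cannot be told apart in whole tissue, here or in any list below.

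The promoter windows of 4 of the acinar genes that fell and of Cldn4, a duct claudin that rose, are shown because they hold letters that match binding motifs of NR5A2 or AP-1. Each runs from 250 bases before to 50 bases after the RefSeq start of the gene (build GRCm38.p6, 5′ to 3′ on the gene's strand). Capitals mark NR5A2 motifs (CAAGGNCA) and AP-1 motifs (TGANTCA), searched on both strands. Bhlha15 lies on the plus strand at chr5:144190036-144190335, Rnase1 on the minus strand at chr14:51146718-51147017, Ctrl on the minus strand at chr8:105933813-105934112, Pla2g1b on the plus strand at chr5:115465892-115466191 and Cldn4 on the minus strand at chr5:134946885-134947184.
Bhlha15: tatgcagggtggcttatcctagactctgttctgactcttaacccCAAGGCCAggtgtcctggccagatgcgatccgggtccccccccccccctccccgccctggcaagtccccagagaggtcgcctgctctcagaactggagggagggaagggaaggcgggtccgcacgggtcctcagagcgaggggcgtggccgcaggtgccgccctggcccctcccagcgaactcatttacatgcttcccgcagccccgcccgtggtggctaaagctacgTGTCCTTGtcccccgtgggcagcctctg
Rnase1: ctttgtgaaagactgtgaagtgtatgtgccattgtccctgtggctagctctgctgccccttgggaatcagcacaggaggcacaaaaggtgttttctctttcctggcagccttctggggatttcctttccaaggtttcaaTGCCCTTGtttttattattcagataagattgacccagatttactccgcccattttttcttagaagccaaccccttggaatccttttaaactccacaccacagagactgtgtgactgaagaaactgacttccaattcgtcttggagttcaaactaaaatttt
Ctrl: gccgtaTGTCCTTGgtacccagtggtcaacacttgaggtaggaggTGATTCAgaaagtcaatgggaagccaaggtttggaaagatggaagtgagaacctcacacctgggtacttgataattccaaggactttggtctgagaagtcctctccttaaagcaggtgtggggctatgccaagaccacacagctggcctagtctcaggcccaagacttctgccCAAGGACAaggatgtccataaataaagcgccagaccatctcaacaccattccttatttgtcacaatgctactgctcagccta
Pla2g1b: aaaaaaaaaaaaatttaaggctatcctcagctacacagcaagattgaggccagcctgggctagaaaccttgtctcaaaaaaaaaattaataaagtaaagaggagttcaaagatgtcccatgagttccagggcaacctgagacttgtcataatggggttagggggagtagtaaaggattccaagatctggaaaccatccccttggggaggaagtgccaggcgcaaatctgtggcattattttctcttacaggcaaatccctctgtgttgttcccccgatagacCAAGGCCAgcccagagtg
Cldn4: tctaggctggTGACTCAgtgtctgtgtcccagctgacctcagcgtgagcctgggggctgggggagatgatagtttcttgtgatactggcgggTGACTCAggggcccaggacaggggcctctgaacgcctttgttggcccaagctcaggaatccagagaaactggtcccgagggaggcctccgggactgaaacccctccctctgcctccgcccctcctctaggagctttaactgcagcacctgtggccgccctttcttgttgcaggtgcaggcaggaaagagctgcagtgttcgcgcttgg

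Bhlha15 held NR5A2 motifs 206 bases before and 22 bases after the start. In Rnase1 its NR5A2 motif began 111 bases before the start and in Pla2g1b 32 bases after it, and Ctrl held 1 AP-1 motif between its 2 NR5A2 motifs. Both marked runs in Cldn4 were AP-1 motifs. Of 12841 tested genes, 7430 had exactly 1 RefSeq window and were searched. An NR5A2 motif was present in 4.99% of windows of genes that rose, in 5.91% of those that fell and in 4.78% of all. AP-1 motifs were present in 6% of windows of genes that rose, in 4.93% of those that fell and in 4.82% of all, and E-boxes (CANNTG) in 62.3%, 64.5% and 63% in the same order. Of 10 digestive enzyme genes with 1 window, 6 held an NR5A2 motif (Cela3a, Cela3b, Ctrl, Klk1, Pla2g1b and Rnase1). The list is short, and a match of letters is not evidence of binding.

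The digestive enzymes had the lowest median of the 36 pathway lists. Of 27 listed genes, 15 could be tested, of which 13 were lower and none was higher, with a median log2 fold change of -3.48. Clps, the cofactor of pancreatic lipase, had 2030, 1980 and 1790 FPKM in HET 24 h, against 149000, 75900 and 70300 FPKM in HET saline (log2 fold change -5.58 ± 0.69, adjusted p = 3.31e-06, limma). Rnase1, the secreted pancreatic ribonuclease, had 559, 804 and 591 FPKM in HET 24 h, against 81300, 41100 and 38800 FPKM in HET saline (-6.30 ± 0.80, adjusted p = 4.73e-06, limma). For both genes the saline library with the largest FPKM sum, replicate 1, was the highest, and the groups were far apart. Pla2g1b, a secreted phospholipase, fell by 4.73 and Ctrl, a chymotrypsin-like protease, by 5 on the log2 scale.

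Amylase was measured through Amy1 only, which had 22.2, 19.7 and 18.7 FPKM in HET 24 h and 278, 198 and 238 FPKM in HET saline. Amy2a5, Amy2b and Ctrb1 were listed at 0 in all 24 libraries, and the value of Amy1 is uncertain because near-identical amylase copies share reads. Ctrc, a chymotrypsin that degrades trypsinogen, had 11.5, 12.5 and 7.29 FPKM in HET 24 h and 724, 321 and 355 FPKM in HET saline. The trypsinogens Prss1 and Prss3 did not pass, at log2 fold changes of -0.86 and -0.80. A further 9 enzyme genes (Cel, Cela1, Cela2a, Cpa1, Cpb1, Pnlip, Prss2, Try4 and Try5) were listed at 0 in every library of a group while no library of some other group was below 100 FPKM. Such zeros were treated as missing estimates, and no change is given for these genes.

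Products of the zymogen granule fell in the same way. Of 15 tested members, 14 were lower and none was higher, with a median of -2.69. Serpini2, a pancreas-enriched serpin, had 8.50, 9.62 and 7.33 FPKM in HET 24 h, against 1970, 1130 and 1200 FPKM in HET saline, a log2 fold change of -7.20 ± 0.92 (adjusted p = 7.63e-06, limma). Tmed11, a cargo receptor of the early secretory pathway, had 1.23, 1.12 and 1.02 FPKM in HET 24 h and 364, 205 and 265 FPKM in HET saline. These were among the largest falls of the comparison, and neither gene's ranges overlapped. Zg16, a lectin of the granule membrane, fell by 5.52, Sycn, a granule protein needed for exocytosis, fell by 4.06 and Rab3d, a granule GTPase, fell by 2.07 on the log2 scale. Cldn10, a claudin of acinar junctions, had 2.12, 2.59 and 3.22 FPKM in HET 24 h and 50.8, 36.9 and 41.9 FPKM in HET saline. Muc1 was the 1 tested member that did not pass, at -0.22.

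Other large falls that the naming rule took were Hamp2, a hepcidin expressed in the pancreas (log2 fold change -7.19 ± 0.51), Gal, the neuropeptide galanin (-5.26 ± 0.73), and Vtn, the adhesion protein vitronectin (-5.15 ± 0.70). Gal had 3.01, 2.32 and 1.26 FPKM in HET 24 h and spread widely in HET saline, at 293, 137 and 40.4 FPKM. Small RNA genes also reached the top ranks by fold change. Snord13 and Snord118 were listed at 0 in every HET 24 h library, and Mir1896, Mir147, Mir719 and Gm22721 were listed at 0 in every HET saline library. For Mir147 the HET 24 h values were 149, 54.5 and 117 FPKM. No fold is given for these, because 1 group of each was listed at 0.

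**Figure D1:**
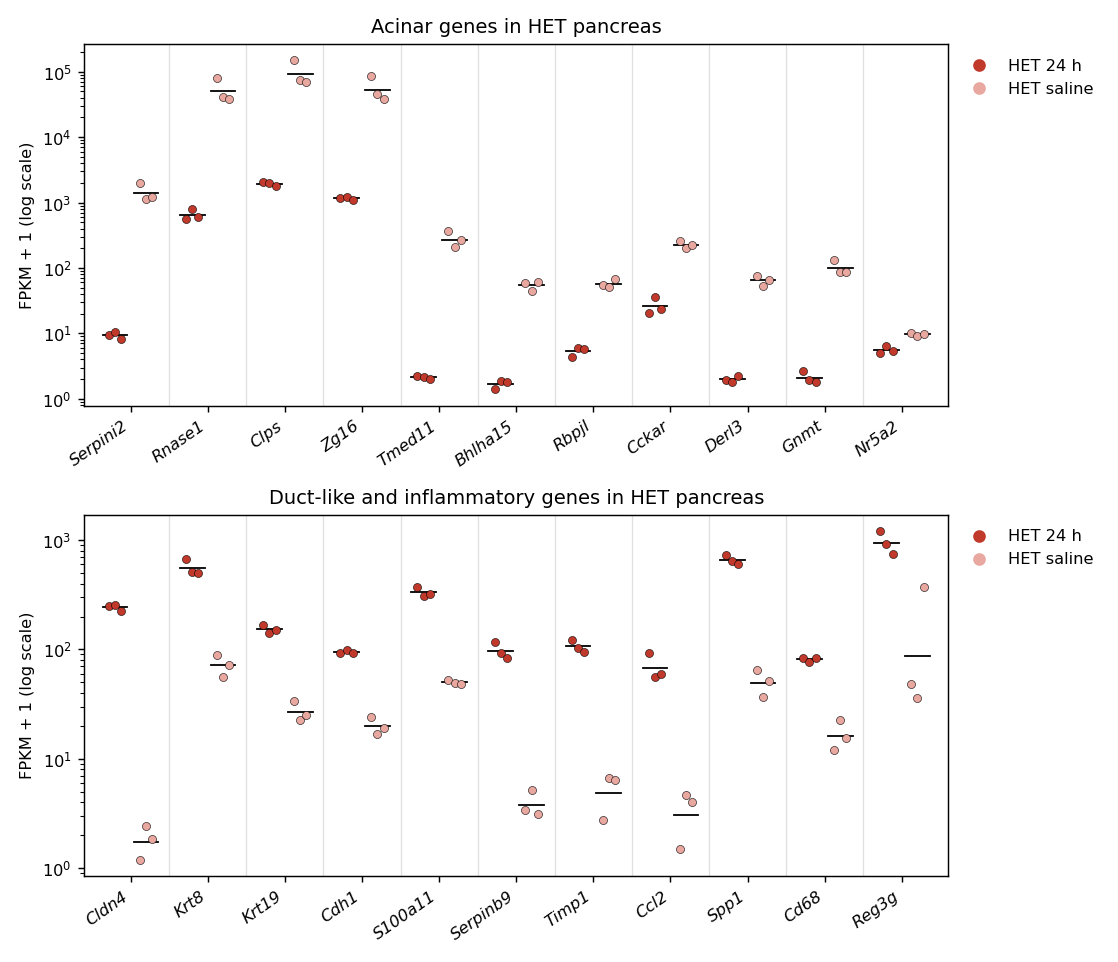
FPKM + 1 on a log scale for 11 acinar genes (upper panel) and 11 duct-like and inflammatory genes (lower panel) in HET 24 h (dark, left of each pair) and HET saline (light, right), with 1 point per library and a line at the mean of the log values. The groups did not overlap for any gene shown, from Serpini2 at 7.33 to 9.62 FPKM in HET 24 h and 1130 to 1970 FPKM in HET saline to Cldn4 at 225 to 256 FPKM in HET 24 h and 0.189 to 1.41 FPKM in HET saline.

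The receptor through which caerulein acts was also lower. Cckar, the cholecystokinin A receptor, had 19.4, 34.9 and 22.6 FPKM in HET 24 h, against 254, 203 and 222 FPKM in HET saline (-3.13 ± 0.40, adjusted p = 4.8e-06, limma). Rcan1, a calcineurin inhibitor induced by calcium signalling, had 19.8, 23.6 and 22.9 FPKM in HET 24 h, against 5.33, 3.84 and 4.51 FPKM in HET saline (2.06 ± 0.17, adjusted p = 3.75e-08). Among 11 tested genes of the receptor and of calcium release, 3 rose and 2 fell, near the 23.9% and 19.8% of all genes. Their median was -0.04. The calls of Plcb1 (-0.64) and Itpr3 (0.45) were lost when single libraries were left out. For Plcb1 these were HET 24 h replicates 1 and 2 and HET saline replicate 2, with an adjusted p up to 0.0779. For Itpr3 they were HET 24 h replicates 2 and 3 and HET saline replicates 1 and 3, with an adjusted p up to 0.145.

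Genes of the endoplasmic reticulum fell with the secretory products they process. Of 30 tested folding and unfolded-protein-response genes, 21 were lower and none was higher, with a median of -1.6. Derl3, a component of the retrotranslocation channel, had 0.947, 0.798 and 1.26 FPKM in HET 24 h, against 75.6, 51.3 and 65.3 FPKM in HET saline (-5.01 ± 0.36, adjusted p = 8.2e-09, limma). Fkbp11, a prolyl isomerase of secretory cells, fell by 4.85, Ero1lb, a disulfide oxidase, fell by 4.66 and P4hb, the major disulfide isomerase, fell by 2.96 on the log2 scale. The 9 members that did not pass included the abundant chaperone Hsp90b1, at 180, 148 and 171 FPKM in HET 24 h and 173, 111 and 297 FPKM in HET saline. They also included Xbp1, the transcription factor of the unfolded protein response, at 0.44 on the log2 scale.

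Translocation and early transport showed 36 lower and 2 higher of 43 tested members, with a median of -1 that turned to 0.05 when libraries were scaled to the total of all gene types. Tram1, a translocon protein, had 27.7, 32.6 and 29.5 FPKM in HET 24 h, against 172, 102 and 121 FPKM in HET saline. Dad1, a subunit of oligosaccharyltransferase, Tmed3, a cargo receptor, and Srp9, of the signal recognition particle, fell by 1.90, 2.16 and 2.54 on the log2 scale. The members that rose were Sec11a, a signal peptidase subunit, and Stt3a, a catalytic subunit of oligosaccharyltransferase.

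Amino acid and one-carbon metabolism, through which acinar cells feed protein synthesis, had 23 lower and 2 higher of 28 tested members, with a median of -1.51. Gnmt, which disposes of excess methyl groups as sarcosine, had 1.66, 0.920 and 0.772 FPKM in HET 24 h, against 133, 86.3 and 86.7 FPKM in HET saline (-5.60 ± 0.39, adjusted p = 5.99e-09, limma). Slc38a5, a glutamine transporter, fell by 5.12 and Gatm, the first enzyme of creatine synthesis, fell by 3.41 on the log2 scale. The exceptions were Bcat1, a branched-chain aminotransferase, at 1.84, and Slc4a4, a bicarbonate cotransporter, at 0.70.

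Ribosomal protein genes were lower in 48 of 51 tested members, with a median of -1.11 that came to 0.01 when libraries were scaled to the total of all gene types and stayed at -0.69 with the protein-coding total. Rpl6 averaged 137 ± 16.7 FPKM in HET 24 h and 357 ± 46.1 FPKM in HET saline (SD, n = 3 each; log2 fold change -1.38 ± 0.18, adjusted p = 7.46e-06, limma). Rps15 and Rplp1 fell by 1.59 and 1.53 on the log2 scale. In contrast, of 23 ribosome biogenesis genes 13 were higher and 1 was lower, with a median of 0.46. Heatr1, which acts in transcription of the ribosomal RNA precursor, had 4.03, 4.08 and 4.02 FPKM in HET 24 h, against 1.15, 1.63 and 1.23 FPKM in HET saline. Nop58, a core protein of box C/D small nucleolar particles, rose by 1.05 on the log2 scale.

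Nuclear-encoded respiratory chain subunits were lower in 24 of 30 tested members, with a median of -0.79 that turned to 0.30 when libraries were scaled to the total of all gene types. Ndufa1, of complex I, had 52.1, 34.4 and 43.9 FPKM in HET 24 h, against 276, 167 and 124 FPKM in HET saline. Atp5d, of the ATP synthase, fell by 1.14 on the log2 scale. Proteasome subunits moved the other way, with 17 higher and 1 lower of 31 tested members and a median of 0.36. Psmd4, a ubiquitin receptor of the proteasome, had 67.8, 63.3 and 48.9 FPKM in HET 24 h, against 33.0, 25.8 and 33.7 FPKM in HET saline (0.93 ± 0.13, adjusted p = 1.89e-05, limma).

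**Figure D2:**
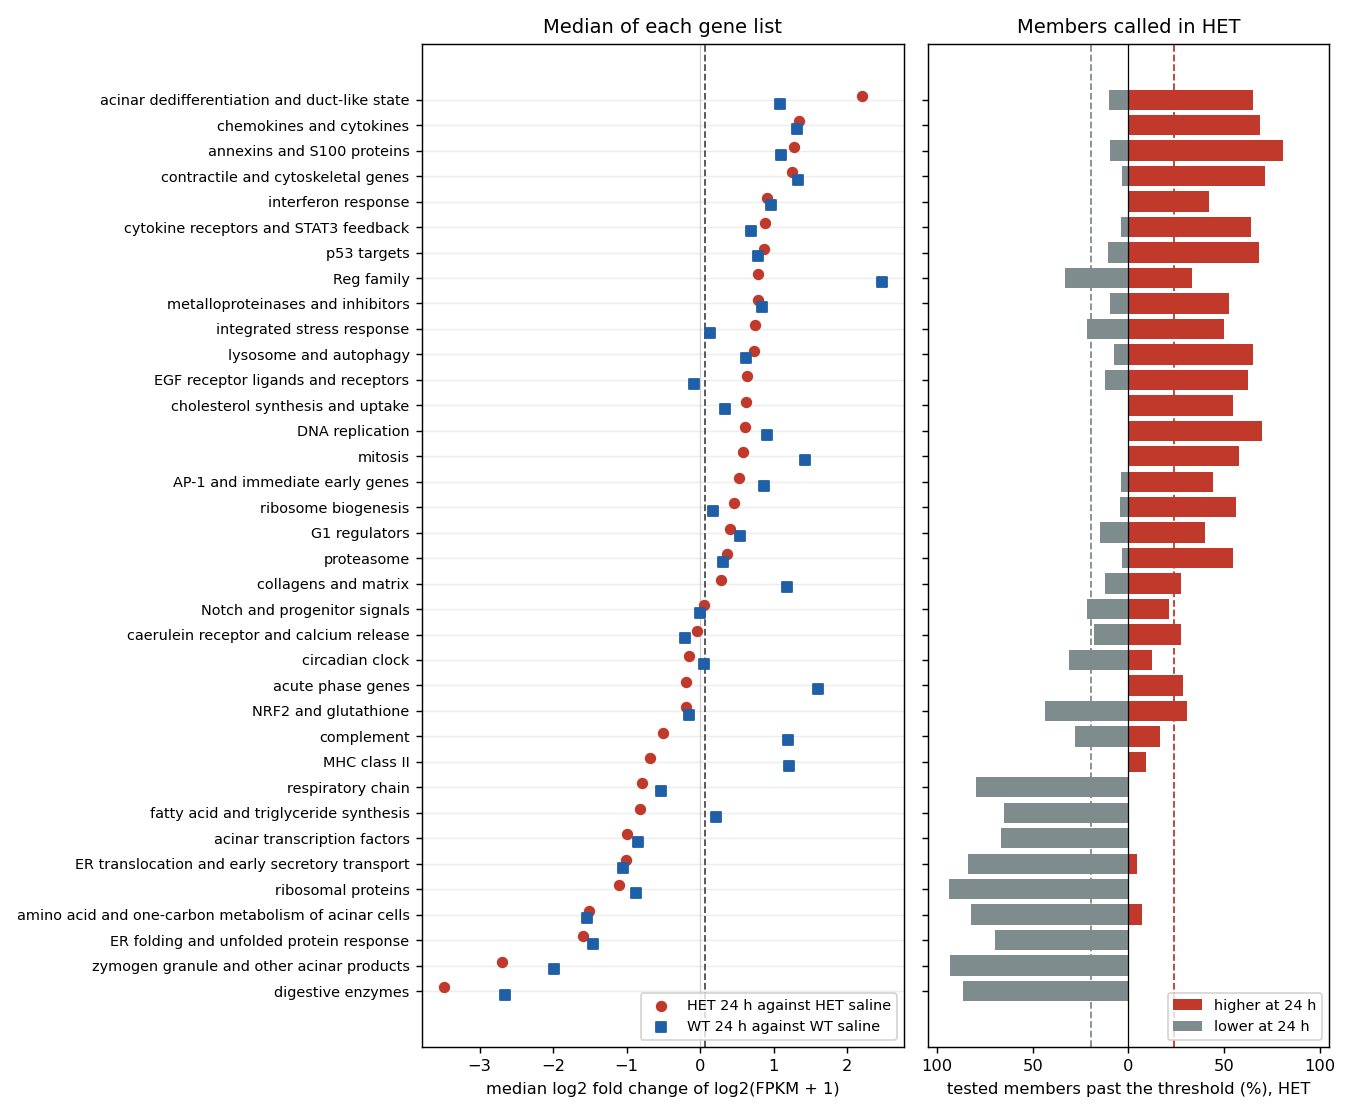
Left, median log2 fold change of each of 36 gene lists in HET 24 h against HET saline (circles) and in WT 24 h against WT saline (squares), with a dashed line at the HET median of all genes, 0.06. Right, percent of the tested members of each list called higher (right of 0) or lower (left of 0) in HET, with dashed lines at the 23.9% and 19.8% of all genes. The digestive enzymes lie lowest at -3.48 and the duct-like list highest at 2.2.

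Genes of the duct-like state that acinar cells adopt on injury rose. Of 20 tested members, 13 were higher and 2 were lower, with a median of 2.2, the highest of the pathway lists. Cldn4, a tight junction claudin of ducts that is scarce in acini, had 251, 256 and 225 FPKM in HET 24 h, against 0.189, 1.41 and 0.827 FPKM in HET saline. It was abundant in every 24 h library and near the lower limit in every saline library (7.14 ± 0.45, adjusted p = 3.89e-09, limma). Krt8 and Krt19, keratins of simple and of ductal epithelium, had 676, 508 and 503 FPKM and 167, 139 and 150 FPKM in HET 24 h. In HET saline Krt8 had 87.9, 55.3 and 71.6 FPKM and Krt19 had 32.5, 21.7 and 24.3 FPKM. Cdh1, the epithelial cadherin, had 91.9, 97.7 and 91.5 FPKM in HET 24 h and 23.2, 15.9 and 18.1 FPKM in HET saline (2.25 ± 0.18, adjusted p = 3.75e-08).

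Duct markers moved in both directions. Of 10 tested duct markers, 5 rose and 3 fell, with a median of 0.21. Spp1, osteopontin, which ducts and macrophages both express, had 730, 643 and 607 FPKM in HET 24 h, against 63.7, 35.5 and 50.1 FPKM in HET saline. Tff2, a trefoil peptide, fell by 4.75 and Aqp1, a water channel of ducts and vessels, by 1.06 on the log2 scale. Sox9, the ductal transcription factor, did not pass, at 2.53, 2.53 and 2.38 FPKM in HET 24 h and 3.93, 2.27 and 4.26 FPKM in HET saline. Of 14 genes of Notch and progenitor signals, 3 rose and 3 fell, near the 23.9% and 19.8% of all genes. Their median was 0.05. Sox4, a progenitor transcription factor, had 8.67, 10.8 and 9.06 FPKM in HET 24 h, against 3.56, 2.53 and 2.52 FPKM in HET saline (1.45 ± 0.15, adjusted p = 5.5e-07, limma). Rbpj, the DNA-binding protein of Notch signalling, rose by 1.23, and Pdx1, a pancreatic identity factor also made by beta cells, fell by 1.14 on the log2 scale.

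Of 8 tested EGF receptor ligands and receptors, 5 rose and 1 fell, with a median of 0.64. The fall was that of Egf, at 0.317, 0.565 and 0.637 FPKM in HET 24 h and 29.7, 24.5 and 22.0 FPKM in HET saline (-4.13 ± 0.27, adjusted p = 4.74e-09, limma). The receptor Erbb3 rose by 0.89. Of the calls in this list, only 2, those of Egf and Erbb3, held without any 1 HET 24 h or HET saline library. Egfr rose by 1.02 and the shedding protease Adam17 by 1.12, but without HET saline replicate 1 they stood at 0.68 and 0.70 with adjusted p of 0.0566 and 0.0827 (limma).

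Annexins and S100 proteins, calcium-binding proteins of membranes and the cytoskeleton, were higher in 17 and lower in 2 of 21 tested members, with a median of 1.27. S100a11 had 368, 305 and 323 FPKM in HET 24 h, against 51.1, 48.6 and 46.9 FPKM in HET saline (2.74 ± 0.16, adjusted p = 1.86e-09, limma). Anxa3, S100a4 and Anxa2 rose by 2.22, 2.41 and 1.89 on the log2 scale. Among 28 contractile and cytoskeletal genes, 20 rose and 1 fell, with a median of 1.26. Tpm4, a tropomyosin, had 75.8, 63.4 and 62.4 FPKM in HET 24 h, against 12.9, 17.5 and 17.7 FPKM in HET saline. Tmsb10, which binds actin monomers, and Tubb6, a beta-tubulin, rose by 2.61 and 2.05. The member that fell was Myl9, a smooth muscle myosin light chain.

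Of 25 AP-1 and immediate early genes, 11 rose and 1 fell, with a median of 0.52. Atf3, a stress-induced transcription factor, had 15.8, 12.2 and 9.76 FPKM in HET 24 h, against 2.04, 2.06 and 2.61 FPKM in HET saline, and Ier3 rose by 2.92 and Fosl2 by 1.28 on the log2 scale. Fos and Jun did not pass, at 0.34 and -0.72. Of 19 p53 targets, 13 rose and 2 fell, with a median of 0.86. Bax, a mediator of apoptosis, had 49.1, 36.8 and 36.4 FPKM in HET 24 h, against 11.1, 9.96 and 8.54 FPKM in HET saline. Phlda3, an Akt inhibitor, rose by 2.26 and Cdkn1a, the cell cycle inhibitor p21, by 2.36 on the log2 scale.

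Of 14 integrated stress response genes, 7 rose and 3 fell, with a median of 0.74. Gdf15, a stress cytokine, rose by 1.97, while Fgf21, a hormone that the exocrine pancreas secretes, fell by 2.18 to 5.58, 5.26 and 7.26 FPKM in HET 24 h, against 49.1, 22.0 and 26.7 FPKM in HET saline. NRF2 and glutathione genes split, with 7 higher and 10 lower of 23 tested members and a median of -0.20. Those that rose included Gclc, the catalytic subunit that starts glutathione synthesis, at 19.8, 13 and 12.4 FPKM in HET 24 h and 2.63, 2.15 and 2.11 FPKM in HET saline. Txnrd1, a thioredoxin reductase, rose by 1.12. The glutathione transferases Gstm2 and Gstm1 fell by 3.75 and 3.04 on the log2 scale. Lysosomal and autophagy genes were higher in 17 and lower in 2 of 26 tested members, with a median of 0.73, led by Lgmn, the protease legumain, at 2.89. Lamp1, a structural protein of lysosomes, had 128, 125 and 125 FPKM in HET 24 h and 141, 126 and 132 FPKM in HET saline, and did not pass.

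Chemokines and cytokines were higher in 22 and lower in none of 32 tested members, with a median of 1.35. Ccl2 and Ccl7, ligands of the monocyte receptor CCR2, had 91.4, 55.3 and 58.5 FPKM and 110, 71.2 and 69.8 FPKM in HET 24 h. In HET saline Ccl2 had 0.496, 3.71 and 2.99 FPKM and Ccl7 had 2.53, 3.07 and 6.38 FPKM. Both groups stood far apart for each gene, with log2 fold changes of 4.48 ± 0.35 and 4.13 ± 0.30 (adjusted p = 2.33e-08 and 9.35e-09, limma). Il1rn, the interleukin-1 receptor antagonist, and Cxcl16 rose by 4.05 and 2.35 on the log2 scale. Cytokine receptors and feedback genes of STAT3 had 16 higher and 1 lower of 25 tested members, with a median of 0.89. Il4ra and Il13ra1, which form a receptor for interleukins 4 and 13, rose by 2.72 and 2.04 and Tnfrsf12a, the TWEAK receptor, by 2.82, while Lifr, the receptor of leukemia inhibitory factor, fell by 2.22.

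Macrophage markers were higher in 16 and lower in 1 of 22 tested members, with a median of 1.65. Their summed level was 1020 to 1610 FPKM in HET 24 h and 321 to 691 FPKM in HET saline. Fcgr1, an Fc receptor of monocytes and macrophages, had 46.0, 24.3 and 29.3 FPKM in HET 24 h, against 0.293, 3.40 and 1.93 FPKM in HET saline (3.69 ± 0.47, adjusted p = 5.39e-06, limma). Cd68, a macrophage lysosomal protein, rose by 2.34 and Trem2, a lipid-sensing receptor, by 2.32. The complement subunits C1qa and C1qc, typical of resident macrophages, did not pass, at 0.11 and -0.05. Genes of alternatively activated macrophages split. Chil3, a chitinase-like protein, had 280, 147 and 139 FPKM in HET 24 h, against 0.680, 2.97 and 7.28 FPKM in HET saline, whereas Retnla, a resistin-like molecule, had 4.46, 4.93 and 10.5 FPKM in HET 24 h, against 47.5, 54.4 and 59.2 FPKM in HET saline. In that list 4 of 10 tested members rose and 2, Retnla and Mgl2, fell, beside 23.9% and 19.8% of all genes.

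Neutrophil markers were higher in 9 of 12 tested members and lower in none, with a median of 1.47, and summed to 205 to 424 FPKM in HET 24 h and 15.9 to 51.3 FPKM in HET saline. Lcn2, lipocalin-2, which injured epithelium also makes, had 85.4, 73.8 and 68.2 FPKM in HET 24 h, against 4.25, 5.76 and 8.53 FPKM in HET saline. Cxcr2, the neutrophil chemokine receptor, had 3.83, 1.91 and 1.8 FPKM in HET 24 h, against 0, 0.250 and 0.117 FPKM in HET saline (1.61 ± 0.33, adjusted p = 5.99e-04, limma). The neutrophil granule gene Mpo was listed at 0 in all 6 libraries, and Elane and Ly6g were at or near 0. None of 10 B cell markers or 10 T and NK cell markers passed, with medians of -0.87 and -0.35, and Cd3e, a subunit of the T cell receptor complex, stood at 0 to 0.0579 FPKM in HET 24 h and at 0.135 to 0.491 FPKM in HET saline.

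Acute phase genes were higher in 4 of 14 tested members and lower in none, beside 23.9% and 19.8% of all genes. Their median was -0.19. Timp1, an inhibitor of metalloproteinases, had 121, 103 and 94.4 FPKM in HET 24 h, against 1.78, 5.61 and 5.37 FPKM in HET saline (4.45 ± 0.40, adjusted p = 9.82e-08, limma). Outside the acute phase list, Serpinb9, an inhibitor of granzyme B, had 116, 91.4 and 82.5 FPKM in HET 24 h and 2.37, 4.16 and 2.13 FPKM in HET saline. Tspan1, a tetraspanin of epithelia that is also outside that list, rose by 4.30 on the log2 scale. The Reg family, secreted lectins of the injured pancreas, split by member. Reg3g had 1210, 922 and 740 FPKM in HET 24 h, against 47.2, 35.2 and 375 FPKM in HET saline, so replicate 3 of the saline group stood above the other saline libraries. Reg3b rose by 3.27, while Reg3d and Reg1 fell by 3.10 and 2.2 on the log2 scale.

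Interferon response genes were higher in 11 of 26 tested members and lower in none, with a median of 0.91, and included the antiviral Rsad2, at 8.02, 2.94 and 4 FPKM in HET 24 h and 0.678, 0.752 and 0.745 FPKM in HET saline. Of 11 MHC class II genes, the 1 that passed was the lysosomal protease Ctss, which rose by 2.17, and the median was -0.68. Complement genes had 3 higher and 5 lower of 18 tested members, beside 23.9% and 19.8% of all genes, with a median of -0.50. The receptors C3ar1 and C5ar1 rose by 2.10 and 2.18, and Cd59a fell by 1.16. Of the complement calls, only these 3 held without any 1 HET 24 h or HET saline library. With scaling to the protein-coding total, 3 complement genes were called higher and 1 lower. C1ra, a protease of the classical pathway, fell by 1.17, a call lost without HET saline replicate 2 (-0.91, adjusted p = 0.0787) and with scaling to the protein-coding total (-0.85, adjusted p = 0.0972). It was also lost in a fit with a term for Y-linked transcripts (-0.95, adjusted p = 0.0537).

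Cell cycle genes rose at low levels. DNA replication genes were higher in 23 of 33 tested members and lower in none, with a median of 0.61. Mcm6, of the replicative helicase, had 7.27, 8.54 and 9.32 FPKM in HET 24 h, against 1.91, 2.57 and 3.75 FPKM in HET saline (1.35 ± 0.21, adjusted p = 3.56e-05, limma). Pcna, the sliding clamp, had 33.7, 25.6 and 27.6 FPKM in HET 24 h and 14.5, 16 and 14.3 FPKM in HET saline. Mitosis genes were higher in 18 of 31 tested members and lower in none, with a median of 0.58. Ccna2, cyclin A2, had 4.57, 3.50 and 3.47 FPKM in HET 24 h, against 1.22, 1.38 and 1.26 FPKM in HET saline. Of 20 G1 regulators, 8 rose and 3 fell, with a median of 0.40. The rises were of both kinds: Ccne1, cyclin E1, and the kinase Cdk4 by 1.5 and 0.93, and the inhibitors Cdkn1a and Cdkn2b by 2.36 and 1.30 on the log2 scale.

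Of 33 collagens and matrix genes, 9 rose and 4 fell, against 23.9% and 19.8% of all genes, so the share that rose was close to that of all genes. Their median was 0.28, beside 0.06 for all genes. Tnc, tenascin C, a matrix protein of injured tissue, had 4.51, 9.20 and 8.97 FPKM in HET 24 h, against 0.115, 0.153 and 0.284 FPKM in HET saline (2.80 ± 0.27, adjusted p = 1.83e-07, limma). Lox, which crosslinks collagen, rose by 1.52, and Postn, periostin, by 1.41. Dcn, the proteoglycan decorin, had 36.6, 29.3 and 42.4 FPKM in HET 24 h, against 127, 230 and 120 FPKM in HET saline (-2.06 ± 0.34, adjusted p = 6.96e-05). Col1a1 and Col3a1 did not pass, at 0.52 and 0.31. Metalloproteinases and their inhibitors had 11 higher and 2 lower of 21 tested members, with a median of 0.78. Mmp7, matrilysin, an epithelial protease, had 34.0, 23.2 and 24.8 FPKM in HET 24 h and 1.75, 0.981 and 0.959 FPKM in HET saline. The markers of fibroblasts and stellate cells summed to 417 to 554 FPKM in HET 24 h and 351 to 642 FPKM in HET saline, ranges that overlap. Of their 14 tested members 2 rose (Pdpn and Postn) and 2 fell (Dcn and Lum), beside 23.9% and 19.8% of all genes, with a median of 0.17. Lum, lumican, at -0.84, lost its call without HET 24 h replicates 1 or 3 or HET saline replicates 1 or 2, with an adjusted p up to 0.0955. It also lost it with scaling to the protein-coding total (-0.47, adjusted p = 0.218) and with a term for Y-linked transcripts (-0.47, adjusted p = 0.102), and scaling to the total of all gene types turned its sign (0.15).

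Lipid synthesis divided into branches. Cholesterol synthesis and uptake had 12 higher and no lower of 22 tested members, with a median of 0.62, and Cyp51, lanosterol demethylase, had 18.7, 18.8 and 18.3 FPKM in HET 24 h, against 5.52, 3.26 and 3.54 FPKM in HET saline (1.97 ± 0.25, adjusted p = 5.92e-06, limma). Fatty acid and triglyceride synthesis had 13 lower and no higher of 20 tested members, with a median of -0.82 that turned to 0.11 when libraries were scaled to the total of all gene types. Fasn, fatty acid synthase, had 8.06, 17.9 and 17.5 FPKM in HET 24 h, against 60.5, 131 and 61.4 FPKM in HET saline (-2.44 ± 0.36, adjusted p = 2.3e-05). Thrsp, a lipogenic regulator, and Gpam, which starts glycerolipid synthesis, fell by 3.95 and 1.38.

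Adipocyte markers were lower in 10 of 14 tested members and higher in none, with a median of -1.76. Fabp4, the fatty acid carrier of adipocytes, had 31.8, 41.3 and 66.7 FPKM in HET 24 h and 114, 172 and 139 FPKM in HET saline, and Adipoq, adiponectin, had 2.39, 2.52 and 10.7 FPKM in HET 24 h and 23.9, 79.9 and 47.1 FPKM in HET saline. The 14 markers summed to 57.1 to 154 FPKM in HET 24 h and 316 to 679 FPKM in HET saline, so adipocyte RNA moved with the falls of the lipogenic genes and of Dcn. Its part in them was not tested. The same sums were 143 to 467 FPKM in WT 24 h and 80.7 to 164 FPKM in WT saline.

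**Figure D3:**
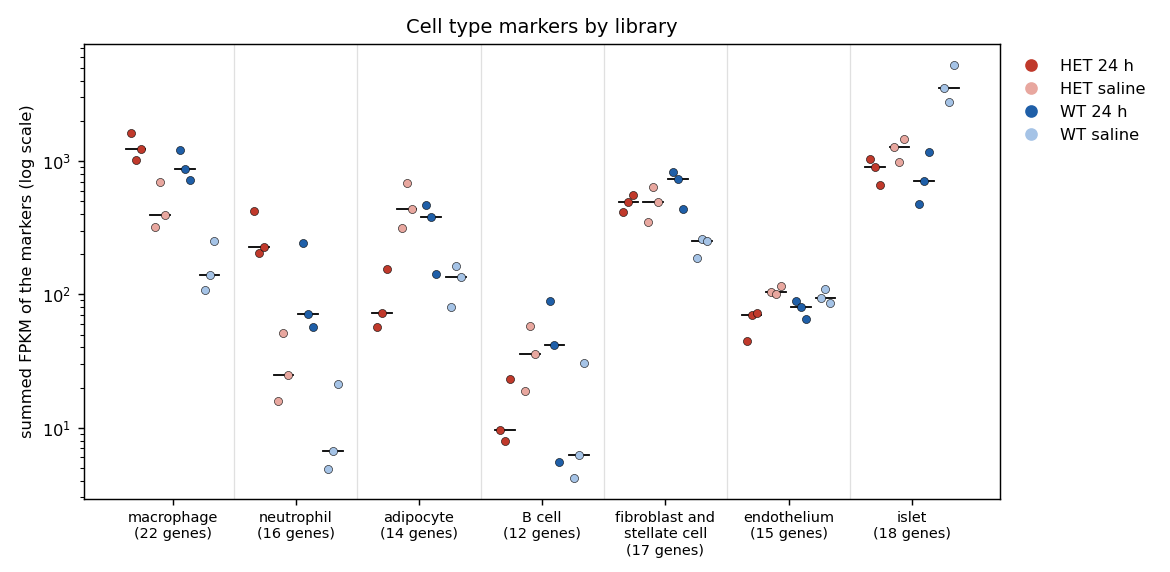
Summed FPKM of the markers of 7 cell types on a log scale, 1 point per library with a line at the median, in HET 24 h, HET saline, WT 24 h and WT saline from left to right within each cell type. Macrophage and neutrophil sums were higher in every HET 24 h library than in any HET saline library, while adipocyte sums were lower, at 57.1 to 154 FPKM in HET 24 h and 316 to 679 FPKM in HET saline.

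Endothelial markers were lower in 8 of 15 tested members and higher in none, with a median of -0.49 that turned to 0.23 when libraries were scaled to the total of all gene types. Kdr, the VEGF receptor, had 1.35, 1.69 and 2.05 FPKM in HET 24 h and 3.92, 4.20 and 4.76 FPKM in HET saline. With scaling to the protein-coding total 1 endothelial marker was called lower, against 8 at the authors' scaling. Islet markers fell in 3 of 15 tested members, a share near the 19.8% of all genes, with a median of -0.35. The fall of Sst, somatostatin (-1.33), was lost without any 1 HET 24 h replicate and without HET saline replicates 1 or 2. Its adjusted p rose up to 0.164 in those fits (limma). With scaling to the protein-coding total it was lost too (-0.95, adjusted p = 0.0901). Ins2, insulin, did not pass, at -0.56. Clock genes rose in 2 and fell in 5 of 16 tested members, beside 23.9% and 19.8% of all genes, with a median of -0.15. Arntl, also called Bmal1, fell by 0.85 and Bhlhe40, a repressor of the clock, rose by 1.69 on the log2 scale. Among the other marker lists, 1 dendritic cell marker of 5 rose and 1 fell, near the 23.9% and 19.8% of all genes. Falls were called for 3 mast cell markers of 6 and 3 red blood cell markers of 5, beside 19.8% of all genes. The dendritic rise, of Cd209a (0.66), was lost without HET saline replicate 1 (0.35, adjusted p = 0.275) and without any 1 of the HET 24 h replicates. The falls of the mast cell proteases Cma1 and Mcpt4 were lost without HET saline replicate 2 or HET 24 h replicates 1 or 2. Of the globins, Hba-a1 lost its call without HET saline replicate 2 or HET 24 h replicate 3, and Hba-a2 without HET saline replicates 1 or 2 or HET 24 h replicates 1 or 3. Alas2, an enzyme of haem synthesis in red cells, lost its call in all fits without 1 library except that without HET saline replicate 3. The calls of all 5 of these genes that fell were also lost with scaling to the protein-coding total. Of 7 mesothelial markers 1 rose, beside 23.9% of all genes, and no Schwann cell, intestinal or spleen and lymph node stroma marker passed.

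Level genes were picked as the 6 with the smallest absolute change at the authors' scaling, among those with at least 100 FPKM in every HET saline library. Their being level follows from that choice, so they are no test of the scaling. Serinc3, a membrane protein, had 185, 196 and 196 FPKM in HET 24 h and 193, 209 and 201 FPKM in HET saline. Ppia, cyclophilin A, had 239, 189 and 217 FPKM in HET 24 h and 278, 210 and 213 FPKM in HET saline. Ptma, a nuclear acidic protein, had 176, 175 and 169 FPKM in HET 24 h and 239, 151 and 169 FPKM in HET saline. With the protein-coding total as the scale, Itm2b, another membrane protein, Serinc3, Ptma and Lamp1 were called higher, at 0.41, 0.35, 0.34 and 0.34.

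The 8 h and 48 h libraries of HET mice were prepared with a later guide and fewer PCR cycles, 8 against 10, so their values are given beside the others without a test. Clps averaged 98400 ± 43900 FPKM in HET saline, 12900 ± 1350 FPKM in the 8 h group, 1930 ± 127 FPKM in HET 24 h and 2010 ± 1830 FPKM in the 48 h group (SD, n = 3 each). Bhlha15 averaged 53.8 ± 8.75, 31.0 ± 0.608, 0.674 ± 0.243 and 4.51 ± 4.21 FPKM in that order, with its lowest mean at 24 h. Krt8 averaged 71.6 ± 16.3, 4370 ± 278, 562 ± 98.5 and 287 ± 47.6 FPKM, and Cdh1 19.1 ± 3.74, 349 ± 27.4, 93.7 ± 3.47 and 49.9 ± 5.05 FPKM, both highest at 8 h. Cldn4 averaged 0.809 ± 0.611, 195 ± 31.7, 244 ± 16.6 and 133 ± 53.6 FPKM.

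The same 24 h change was measured in WT mice, with no library in common. Of 12843 genes tested there, 5020 (39.1%) were called. Of the genes called in HET, 62.1% were called in the same direction in WT, and these were 69.4% of the WT calls. Both changes called 58 genes in opposite directions, among them Fabp4, Plin1, Cidec and Slc2a4 of adipocytes. The log2 fold changes correlated at r = 0.658 over 12838 genes, which are not independent replicates. A test of the difference between the changes (interaction, HET change minus WT change) called 296 genes (2.31%), 138 with a higher and 158 with a lower HET change. With only the 4 saline and 24 h groups in the fit it called 100, with scaling to the total of all gene types 47 and with a term for Y-linked transcripts 174. Leaving out 1 library gave 129 calls, without WT 24 h replicate 1, to 616 calls, without WT 24 h replicate 3. It gave 181 without HET saline replicate 2, 156, 155 and 178 without HET 24 h replicates 1, 2 and 3, and 173 without WT 24 h replicate 2.

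Acinar identity genes were among those whose change differed. Of 15 tested acinar transcription factors, 1, Bhlha15, had a lower HET change and 1 had a higher one. Bhlha15 fell to 0.396, 0.846 and 0.781 FPKM in HET 24 h, against 58.7, 43.7 and 59.0 FPKM in HET saline, and had 12.2, 21.9 and 16.3 FPKM in WT 24 h, against 74.5, 71.6 and 76.7 FPKM in WT saline. The interaction was -2.91 ± 0.66 (adjusted p = 0.0252, limma). Cckar had 117, 131 and 148 FPKM in WT 24 h and 222, 209 and 195 FPKM in WT saline, and its interaction was -2.47 ± 0.56 (adjusted p = 0.0264). Cldn10 and Gatm differed by -2.27 and -1.78. The call of Bhlha15 was lost without HET 24 h replicate 1 (adjusted p = 0.0634) or WT 24 h replicate 2 (adjusted p = 0.0627). Those of Cckar, Cldn10 and Gatm were lost in 5, 10 and 5 of the 12 fits that left out 1 library, with adjusted p up to 0.0691, 0.0870 and 0.0684. HET 24 h replicate 1 and WT 24 h replicate 2 were among the libraries concerned for all 4 genes. The enzyme list as a whole had a median of -3.48 in HET and -2.66 in WT, and no enzyme gene passed the interaction test.

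Genes with a higher change in HET included Cldn4 and Cdh1, both of epithelial junctions, whereas that of the claudin Cldn10 was lower, as given above. Cldn4 had 17.1, 21.9 and 40.9 FPKM in WT 24 h and 2.69, 1.49 and 0.952 FPKM in WT saline, and its interaction was 3.83 ± 0.64 (adjusted p = 0.00949, limma). Cdh1 had 22.0, 34.1 and 44.6 FPKM in WT 24 h and 31.0, 27.3 and 27.6 FPKM in WT saline, with an interaction of 2.09 ± 0.26 (adjusted p = 0.00197). Rcan1 and Sox4 had interactions of 1.37 and 1.05. Camk2d, a calcium-dependent kinase, and Krt23, a keratin, had interactions of 2.16 and 1.97. The calls of these 6 genes held without any 1 of the 12 libraries.

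Lipogenic and adipocyte genes were among those with lower HET changes. Scd1, stearoyl-CoA desaturase, had 4.66, 10.6 and 15.1 FPKM in HET 24 h and 53, 235 and 112 FPKM in HET saline, and 70.9, 44.4 and 16.6 FPKM in WT 24 h and 5.49, 13.6 and 20.3 FPKM in WT saline. It was high in HET saline and in part of WT 24 h, and the interaction was -5.08 ± 1.00 (adjusted p = 0.0139, limma). Of 14 adipocyte markers 7 and of 20 fatty acid synthesis genes 6 had a lower HET change, and the adipocyte marker sums given above moved with them; their part was not tested. Lrg1, an acute phase glycoprotein, had 10.8, 15.4 and 17.5 FPKM in HET 24 h and 7.38, 15.9 and 31.8 FPKM in HET saline, and 61.7, 41.2 and 89.3 FPKM in WT 24 h and 5.50, 6.79 and 5.66 FPKM in WT saline. Its interaction was -3.28 ± 0.56 (adjusted p = 0.00949).

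Immune and matrix lists are given side by side. In WT, 2627 of 12843 tested genes were called higher, and 2.31% of all genes passed the interaction test. Acute phase genes had a median of -0.19 in HET, with 4 higher, and of 1.6 in WT, with 10 higher. In that list 2 genes, Lbp and Lrg1, had a lower HET change and none a higher one. Of 33 collagens and matrix genes, 9 were higher in HET and 25 in WT. By the interaction test 7 of these 33 had a lower and 1, Tnc, a higher HET change, a larger share than the 2.31% of all genes. For MHC class II the medians were -0.68 in HET and 1.21 in WT, for complement -0.50 and 1.2 and for mitosis 0.58 and 1.42, with 1 mitosis gene and no MHC class II or complement gene past the interaction test. Macrophage marker sums were 1020 to 1610 FPKM in HET 24 h and 321 to 691 FPKM in HET saline. In WT they were 717 to 1220 FPKM at 24 h and 108 to 252 FPKM in saline. The saline ranges did not overlap between the genotypes, while the 24 h ranges did. B cell marker sums were 9.65, 7.92 and 23.2 FPKM in HET 24 h and 18.7, 57.8 and 35.5 FPKM in HET saline. In WT they were 89.2, 41.5 and 5.54 FPKM at 24 h and 4.2, 6.28 and 30.8 FPKM in saline. The part of these differences in the medians was not tested.

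**Figure D4:**
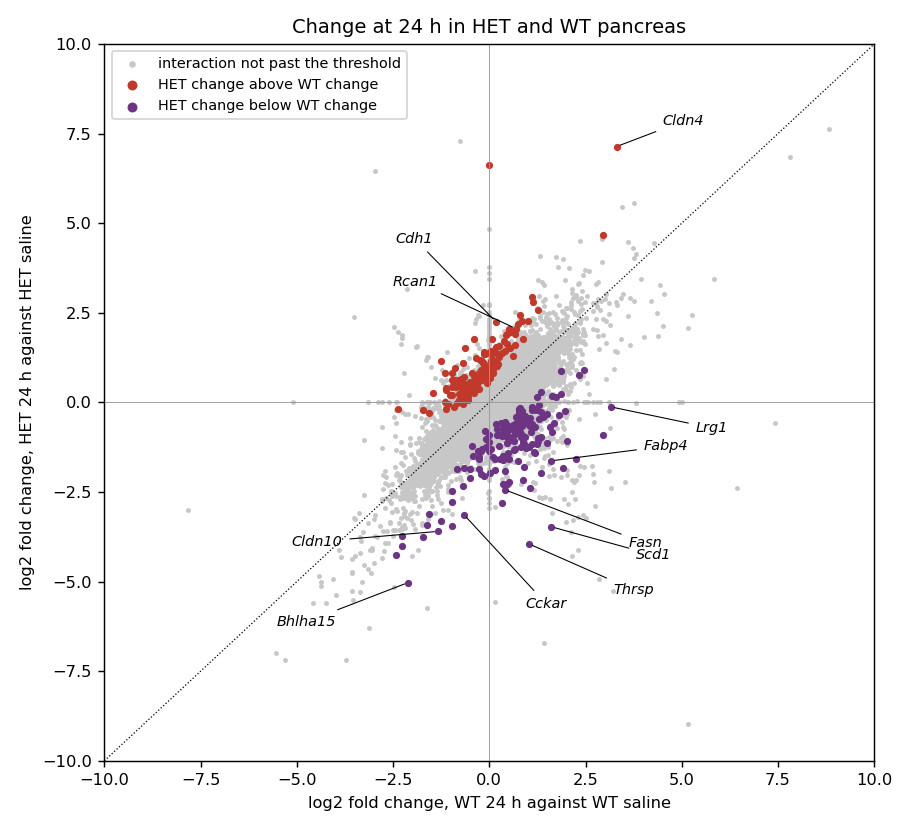
Log2 fold change of each gene in HET 24 h against HET saline (vertical axis) and in WT 24 h against WT saline (horizontal axis), with the 138 genes whose HET change was higher and the 158 whose HET change was lower by the interaction test in colour and a dotted line where both changes are equal. Cldn4 lies at 7.14 in HET and 3.31 in WT, and Thrsp at -3.95 in HET and 1.03 in WT.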

How the data were processed

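Whole-pancreas polyadenylated RNA was sequenced on a Genome Analyzer IIx, 1 library per mouse. The header of the deposited table names no unit, and its values were taken as FPKM from the Cuffnorm entry and the values themselves. The authors made these FPKM values with CASAVA 1.8, Bowtie, Cufflinks 2.0.2 and Cuffnorm on build mm9, per the submitters' processing notes; the sources used here give neither the annotation release nor read totals, so depth is unknown. FPKM is relative, and the deposited values were not held to a fixed sum per library, so rises and falls depend on the scaling chosen. Saline and 24 h libraries were made with the same preparation guide, apart from WT saline replicate 3, which the labels place in no guide. RNA integrity numbers ran from 6.6 to 9.2.

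Log2(FPKM + 1) was fitted with limma 3.58.1 (R 4.3.3; trend and robust moderation), with 8 group means over all 24 libraries, for genes with at least 1 FPKM in 3 libraries. P-values were adjusted over all genes tested. A group listed at 0 in all 3 libraries, while no library of some other group was below 100 FPKM, was treated as missing (22 genes). So were 11 genes that start within 500000 bases of such a gene (GRCm38 annotation), are at 0 in the same groups and reach at least 1 FPKM in every library of another group. A simulation over 12871 genes gave a change to 200 of them, none at the lowest levels. The fit recovered 72% to 76% of its 2-fold changes. Members and gene lists were chosen with earlier results of these data known. Named genes were Nr5a2 and the 12 largest called changes in each direction. Those changes needed an official symbol, a higher mean of 10 FPKM or more and no overlap. Up to 4 genes per list by adjusted p and up to 6 called interactions per direction were added. So were 6 level genes, with the smallest absolute HET change among genes at 100 FPKM or more in every HET saline library. Other list members were named after their values were seen. Promoters came from RefSeq (GRCm38.p6). The labels call each library a separate animal.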

Additional observations from a re-analysis of the deposited data

Results flagged for a closer look

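The change at 24 h differed between HET and WT mice for 27 named genes by the interaction test (HET change minus WT change on the log2 scale, limma, adjusted p under 0.05). It was lower in HET for the lipid genes Scd1 (-5.08), Thrsp (-4.97), Dgat2 (-3.45), Fabp4 (-3.24), Fasn (-2.85) and Lpl (-1.35). It was lower in HET for the acinar genes Bhlha15 (-2.91), Cckar (-2.47), Cldn10 (-2.27) and Gatm (-1.78), and for Trf (-3.82), Lrg1 (-3.28), Dcn (-1.91), Lum (-1.91), Pmp22 (-1.41) and Gm15796 (-3.88).

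The change was higher in HET for Cldn4 (3.83), Tcim (2.16), Camk2d (2.16), Cdh1 (2.09), Krt23 (1.97), Serpinb9 (1.72), Tnc (1.68), Rcan1 (1.37), Sox4 (1.05) and Psmd4 (0.90). For Mir147 the fitted difference was 6.64, but the gene was listed at 0 in every HET saline, WT 24 h and WT saline library, so that value depends on the pseudocount. Of the 27 calls, 12 held when any 1 of the 12 libraries was left out, namely Scd1, Thrsp, Lrg1, Fabp4, Fasn, Lpl, Sox4, Rcan1, Krt23, Cdh1, Camk2d and Cldn4. The others were lost without at least 1 library.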

How the results depend on the processing

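Of all 5613 genes called in HET, 3812 kept the call without any 1 of the HET 24 h and HET saline libraries. The named genes were picked largely by adjusted p or size of change. Of 193 named genes called in HET, 154 kept the call in every setting tried. In every setting other than scaling to the total of all gene types without enzyme, granule and Reg genes, 172 kept it. Leaving out 1 library ended 16 of the 193 calls. That scaling gave 8573 calls in HET, 7728 in WT and 47 for the interaction. Among named genes called at that or the authors' scaling, it turned the sign of Nr5a2 (0.17), Cry1 (0.03), Zbtb46 (0.06), Plvap (0.17), Emcn (0.02), Lum (0.15), Uqcrfs1 (0.07), Serinc3 (1.05), Ptma (1.03), Lamp1 (1.03), Hsp90b1 (1.00) and Ppia (1.00). The protein-coding total, chosen after seeing the data, turned Serinc3 (0.35), Ptma (0.34) and Lamp1 (0.34) among genes called at either scaling. A fit to the compared groups alone called 4121 genes in HET and 3185 in WT. With only the saline and 24 h groups 4511 were called in HET. Fits to the compared or to the saline and 24 h groups called 100 for the interaction. A term for Y-linked transcripts, also chosen after seeing the data, left 5166 calls in HET and 174 interaction calls. Leaving out 1 library gave 4818 to 5372 calls in HET, 4007 to 4933 in WT and 129 to 616 for the interaction, the lowest without WT 24 h replicate 1 and the highest without WT 24 h replicate 3. The interaction count also fell by over 1.5 times without HET saline replicate 2 (181), HET 24 h replicates 1 (156), 2 (155) or 3 (178) or WT 24 h replicate 2 (173). The cause of these shifts was not tested. Read depth is unknown, so no counting error can be given for low values. No paired analysis was possible because the labels give no shared replicate numbers.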

Other observations

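GM2663, a gene of the trypsin locus, rose by 7.64 on the log2 scale in HET 24 h, while 13 of 15 tested digestive enzyme genes fell. It lies among near-identical trypsin copies that can share reads, and 3 trypsins of the enzyme list (Prss2, Try4 and Try5) were listed at 0 in whole groups, so its value is uncertain. Trf, transferrin, was called in WT at 2.25, and in HET it stood at -1.58 with an adjusted p of 0.0526 (limma). Lrg1 stood at -0.13 in HET and 3.16 in WT.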
